A study of Mus musculus with 14 samples.

Results

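The superior mesenteric artery (SMA), the vessel that feeds most of the intestine, was compared between Drp1 KO and WT mice after ischemia. The comparison took the 7 ischemic mice out of 14 in the study, 4 of them labelled Ischemia_Drp1 flox/+ (here KO) and 3 labelled Ischemia_Drp1 +/+ (here WT), and covered all genes of the count table. All 14 mice were of C57BL/6 background and 8 weeks old at sampling by their labels, and bulk RNA-seq was made from total RNA of the artery, 1 library per mouse. Ischemia was a haemorrhage model, in which blood was drawn from the femoral artery. The labels mark the ischemic libraries with 2 h, while the study's text gives another duration, so the time of sampling is uncertain. The KO allele is heterozygous. The labels write it as flox/+ and the study's methods describe a frameshift made with CRISPR/Cas9 aimed at exon 2 and name no Cre driver. Sex, litter and the number of founder lines are not given.

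Drp1, encoded by Dnm1l, is the dynamin-family GTPase that divides mitochondria: it is recruited from the cytosol to receptors on the outer membrane, assembles into rings and constricts the organelle by hydrolysing GTP. Fusion is done by the mitofusins on the outer membrane and by Opa1 on the inner membrane. In the vessel wall, where smooth muscle cells hold the tone that maintains blood pressure, the balance of fission and fusion is linked to respiration, to removal of damaged mitochondria and to cell death.

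Dnm1l (RefSeq, GRCm38.p6, chr16:16312228-16359038, minus strand) was read first as a check of the labels. Its second exon holds the glycine, lysine and serine codons of the loop that binds the nucleotide's phosphates, shown in capitals in the reference sequence of the exon targeted by the KO. The exon lies at chr16:16345998-16346145 of GRCm38 and is printed along the gene's own strand. Its 148 bases are not a multiple of 3 (the remainder is 1), so a transcript that skips it would change reading frame.

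Dnm1l exon 2: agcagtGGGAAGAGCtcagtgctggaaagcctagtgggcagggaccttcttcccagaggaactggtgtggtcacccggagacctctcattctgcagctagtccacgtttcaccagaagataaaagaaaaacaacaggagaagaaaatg

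CPM values (counts of the gene divided by the library's total and multiplied up to a common size) of Dnm1l were 79.5, 63.5 and 79.3 in the 3 WT mice and 71.8, 69.4, 77.4 and 61.0 in the 4 KO mice. The groups overlapped, and the KO mean was 5.69% lower. The log2 fold change, given throughout as KO minus WT, was −0.08 ± 0.15 (SE), with an adjusted p of 0.823 in edgeR's quasi-likelihood test and an exact two-sided permutation p of 0.457, where 0.0286 is the smallest p that 35 splits of the mice allow. Whole-gene counts sum over all exons, so they do not show exon 2 of a single allele by itself. They gave no clear loss of Dnm1l RNA in KO, and whether the altered transcript is stable was not tested. The groups are named here by their labels.

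Libraries of the 7 mice held 31284232 to 36795661 counts, so that 3 counts, the smallest level taken as detectable, corresponded to 0.0815 to 0.0959 CPM. Mitochondrially encoded RNA took 6.46% to 19.2% of the counts in WT and 11.1% to 13.8% in KO mice. Mice of a group differed far beyond counting error in every pair (chi-square per degree of freedom 59.1 to 328), so no library was counted as a duplicate. WT mouse 2 and KO mouse 1 stood apart from the rest of their groups. WT mouse 2 lay at −92.8 on the second principal component while the other 6 mice lay between 2.45 and 38.6, and KO mouse 1, at −38.7, lay on the WT side of the first component, where the other KO mice ranged from 29.9 to 76.3. Xist, the RNA that silences an X chromosome in females, was at 651 CPM in WT mouse 1 and 455 CPM in KO mouse 3 and at most 1.82 CPM in the other 5 mice, so 1 mouse of each group had a female pattern. The tissue check was mixed. Smooth muscle Acta2 (9667 to 18257 CPM) and Myh11 (6448 to 13416 CPM) were among the highest genes, whereas Tagln, an equally typical smooth muscle gene, was listed at only 1.91 to 4.01 CPM. Exons of Pcsk7 and of a predicted gene on the other strand cover 67.9% of the exon bases of Tagln, and the counting rule for shared bases is not given in the sources used here. The T-cell marker Cd3e was at most 0.447 CPM and the pancreatic gene Prss2 was listed at 0 in all 7 mice.

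Of 16190 genes tested, 0 passed the study's limits of a false discovery rate (FDR) under 0.05 and a fold change over 1.5 in edgeR's quasi-likelihood test (percent of genes called 0). The smallest FDR was 0.287, shared by the 24 leading genes below, and the smallest unadjusted p was 4.27e-05. Without adjustment, 1340 genes were higher in KO (8.28%) and 1051 were lower (6.49%) at p under 0.05. In 879 genes every KO mouse was above every WT mouse (5.43%) and in 936 every KO mouse was below (5.78%). The median log2 fold change of all genes was −0.01. TMM scaling sets the bulk of genes near 0, so this median cannot show whether all genes shifted together.

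The outcome turned on the tool and on 1 mouse. DESeq2 on the same counts called 430 genes, 269 higher (1.66%) and 161 lower (0.994%). With edgeR, leaving out KO mouse 1 gave 383 calls among 15863 genes, 326 higher (2.06%) and 57 lower (0.359%), with a smallest FDR of 0.0166, while leaving out any other mouse gave 0. The DESeq2 calls and the calls without KO mouse 1 shared 175 genes, 40.7% of the former and 45.7% of the latter, and all 175 had the same direction in both. Because no gene passed the main test, differences are given below as higher or lower levels with their size, SE and unadjusted p, and a group of genes is read against the 8.28% and 6.49% of all genes.

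The 12 leading genes on the higher side, picked by smallest p where all KO mice exceeded all WT mice, came from several cell functions. Tnfrsf21 (death receptor 6, a member of the tumour necrosis factor receptor family; chr17:43016555-43089188) stood at 7.88, 7.54 and 11.9 CPM in the WT mice and at 30.7, 27.6, 26.8 and 24.0 CPM in the KO mice. All 4 KO values were far above the highest WT value, a log2 fold change of 1.58 ± 0.21, and the difference under normal conditions was −0.06. Esrrg (chr1:187608510-188214885) encodes the oestrogen-related receptor gamma, a nuclear receptor that drives genes of oxidative metabolism. It was at 0.388, 0.582 and 0.704 CPM in WT and at 2.79, 5.10, 8.67 and 6.52 CPM in KO, a log2 fold change of 3.36 ± 0.48. The lowest KO mouse was KO mouse 1, which was still above each WT mouse.

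Tcap (chr11:98383811-98384953), the sarcomere protein telethonin, was at 46.4, 56.3 and 33.2 CPM in WT and at 267, 113, 232 and 365 CPM in KO (log2 fold change 2.43 ± 0.39). It was also higher in KO under normal conditions, by 1.36 on the log2 scale. Uqcrc1, a core subunit of respiratory complex III, went from 2.90, 3.43 and 3.06 CPM to 10.4, 16.1, 11 and 27.7 CPM (2.38 ± 0.38). These counts are very low for this subunit, since its partner Uqcrc2 was at 88.4 to 374 CPM. Exons of other genes cover 0% of the 4135 exon bases of Uqcrc1. How reads matching more than 1 place were counted is not given in the sources used here, and the cause of the low counts was not tested. Shtn1, a regulator of axon outgrowth and actin coupling, had values of 4.87, 4.35 and 3.79 CPM against 9.52, 18.6, 17.7 and 13.2 CPM (1.77 ± 0.28). In none of these genes did a KO mouse reach down to the WT range.

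The remaining 7 of the 12 were Mogat1 (a monoacylglycerol acyltransferase), Tmem171, Iba57 (a factor in mitochondrial iron-sulphur cluster assembly), Cpa3 (the mast cell carboxypeptidase), Aagab, Phospho1 (a phosphatase of phosphocholine) and Akr1c13 (an aldo-keto reductase). Apart from Tmem171 their log2 fold changes were 0.89 to 2.61. Tmem171 was at 0.0597, 0.0343 and 0.0271 CPM in the WT mice, under the level of 3 counts, and at 0.529, 0.588, 1.40 and 1.51 CPM in the KO mice, so no fold is given for it. Phospho1 was split within the KO group, with KO mouse 1 at 6.93 CPM and the other 3 at 26.3 to 27.1 CPM, against 2.63 to 4.42 CPM in WT. Exons of other genes overlap 89.6% of the exon bases of Phospho1, so its reads could not be assigned with certainty. Cpa3 was at 0.650 to 0.959 CPM in WT and 2.56 to 4.08 CPM in KO, and was higher in KO by 2.05 under normal conditions also.

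The 12 leading genes on the lower side held regulators of smooth muscle, matrix and chromatin. Myocd (chr11:65173608-65269989), the coactivator of serum response factor that switches on smooth muscle genes, was at 549, 263 and 361 CPM in WT and at 182, 124, 132 and 165 CPM in KO, a log2 fold change of −1.37 ± 0.26. Every KO mouse was below the lowest WT mouse. Tmtc2 (chr10:105187663-105574479), a protein of the endoplasmic reticulum that glycosylates cadherins, had the smallest p on this side, with 85.9, 46.0 and 79.8 CPM in WT and 25.6, 18.3, 27.5 and 22.2 CPM in KO (−1.59 ± 0.24). Mfap5, a glycoprotein of elastic microfibrils, was at 287, 359 and 481 CPM in WT and 199, 150, 105 and 140 CPM in KO (−1.34 ± 0.25).

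Bcor (chrX:12036737-12160516), a corepressor that acts with Bcl6 and Polycomb proteins, was at 143, 76.0 and 87.6 CPM in WT and at 44.4, 39.3, 51.8 and 39.7 CPM in KO (−1.22 ± 0.23). Tet3, which oxidises 5-methylcytosine in DNA, was at 59.4 to 69.6 CPM in WT and 27.5 to 40.8 CPM in KO (−0.85 ± 0.17). The same pattern without overlap held for Adam11 (−1.08 ± 0.17), the actin-binding drebrin gene Dbn1 (−0.80 ± 0.15), the cilia gene Ttc12 (−0.92 ± 0.18), the transcription factor gene Creb3l1 (−0.91 ± 0.18), which controls collagen production, and Arhgap12 (−0.70 ± 0.14). Over the 7 mice each of these genes had 2887 to 17458 counts.

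Lrp2 (megalin, a large endocytic receptor) and Ankrd61 were low in all 7 ischemic mice. Lrp2 was at 2.00, 3.01 and 1.71 CPM in WT and 0.206, 0.433, 0.358 and 0.340 CPM in KO, and Ankrd61 at 1.06 to 1.25 CPM in WT and 0.147 to 0.209 CPM in KO. Both ran the opposite way under normal conditions, where KO was higher by 3.85 for Lrp2 and by 3.00 for Ankrd61 on the log2 scale.

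All 24 leading genes were called by DESeq2, 20 of 24 were called by edgeR without KO mouse 1 and 5 of 24 by DESeq2 on all 14 mice. The 24 genes had the same sign in every alternative run for them. Their values were used to choose them, so their lack of overlap is part of the rule and not a result. The calls and the kept sign come from the same ischemic mice, so they are not separate support. The plot of the leading genes by mouse shows both sets.

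**Figure D1:**
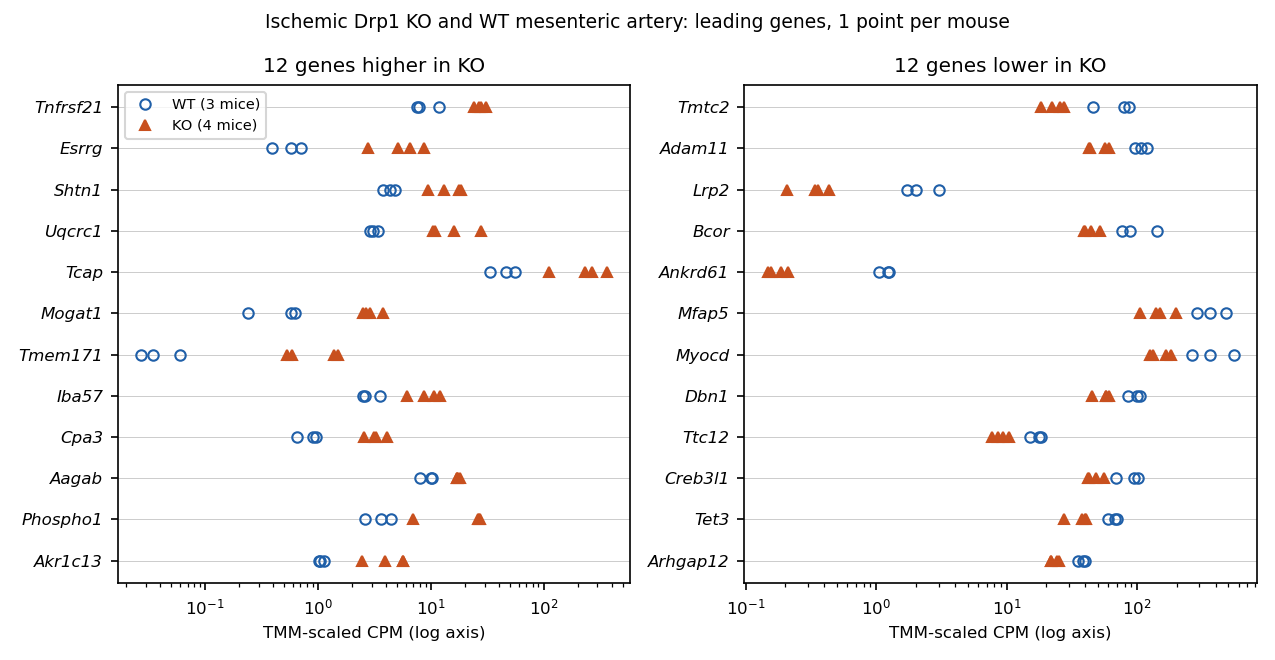
CPM on a log axis of the 12 genes higher and the 12 genes lower in KO with the smallest p, 1 point per ischemic mouse (open circles WT, 3 mice, and filled triangles KO, 4 mice). The groups do not overlap in any row, which the choice of genes required, and KO mouse 1 sits apart from the other KO mice in Phospho1 (6.93 CPM against 26.3 to 27.1).

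By CPM, the 8 genes with the largest difference were from lipid synthesis, thermogenesis and the contractile and elastic wall. Scd1 and Fasn, the desaturase and the synthase of fatty acids, had log2 fold changes of 1.62 ± 0.79 and 1.87 ± 0.94 and overlapped widely between groups. Scd1 was at 546, 7848 and 3004 CPM in WT and 5198, 16622, 16314 and 8628 CPM in KO. Ucp1, the uncoupling protein of brown fat, was at 65.1, 782 and 298 CPM in WT and at 597, 3294, 2690 and 2968 CPM in KO (2.65 ± 0.85), and Gpd1, which links glycolysis to glycerolipids, followed it (1.98 ± 0.69).

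On the lower side of these 8, Eln (elastin) was at 4353, 11169 and 11826 CPM in WT and at 6462, 5677, 1869 and 2843 CPM in KO (−1.11 ± 0.49). Col1a1, the main chain of type I collagen, was at 868, 4261 and 4893 CPM in WT and 1204 to 1699 CPM in KO (−1.24 ± 0.48). WT mouse 1 was below all KO mice for Col1a1 and within their range for Eln. Flna (−0.48 ± 0.29) and Myh11 (−0.38 ± 0.27) were highest in WT mouse 1 and overlapped between groups.

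Oxidative phosphorylation passes electrons through complexes I to IV, and complex V, the ATP synthase, uses the resulting proton gradient. Of 75 subunit genes tested, 73 were higher in KO and 49 had an unadjusted p under 0.05, all of them higher, against 8.28% of all genes. The median log2 fold change was 0.91 for the 35 genes of complex I, 1.23 for the 4 of complex II, 1.10 for the 9 of complex III, 0.82 for the 11 of complex IV and 0.72 for the 16 of complex V, against −0.01 over all genes. Only 1 of the 75, Uqcrc1, was higher in every KO mouse than in every WT mouse, against 5.43% of all genes. Its level is uncertain, as its low counts above show.

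The single mice show where the groups met. Ndufa10, a subunit of complex I, was at 81.7, 156 and 119 CPM in WT and at 130, 350, 291 and 380 CPM in KO (1.27 ± 0.38). Sdha, the flavoprotein of complex II, was at 265, 437 and 300 CPM in WT and 348, 1140, 1000 and 958 CPM in KO (1.37 ± 0.39), and Atp5b, the catalytic beta subunit of complex V, at 749, 1186 and 866 CPM against 877, 2620, 2186 and 3100 CPM (1.23 ± 0.40). KO mouse 1 lay inside the WT range for each gene, and the other 3 KO mice were far above it. Within WT, mouse 1 was the lowest and mouse 2 the highest for each of the 3 genes.

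The count of 49 depended on which mice were kept. It was 70 of 75 without KO mouse 1, with 22 of them past the limits on FDR and fold, but 12 without WT mouse 1, 22 without WT mouse 3, 18 without KO mouse 2 and 17 without KO mouse 4. In the fit of all 14 mice it was 2, and DESeq2 on the 7 mice called 8 genes. In the plot of fold change against p the group lies largely right of 0, with 49 genes above the line of unadjusted p = 0.05 and the others below it.

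**Figure D2:**
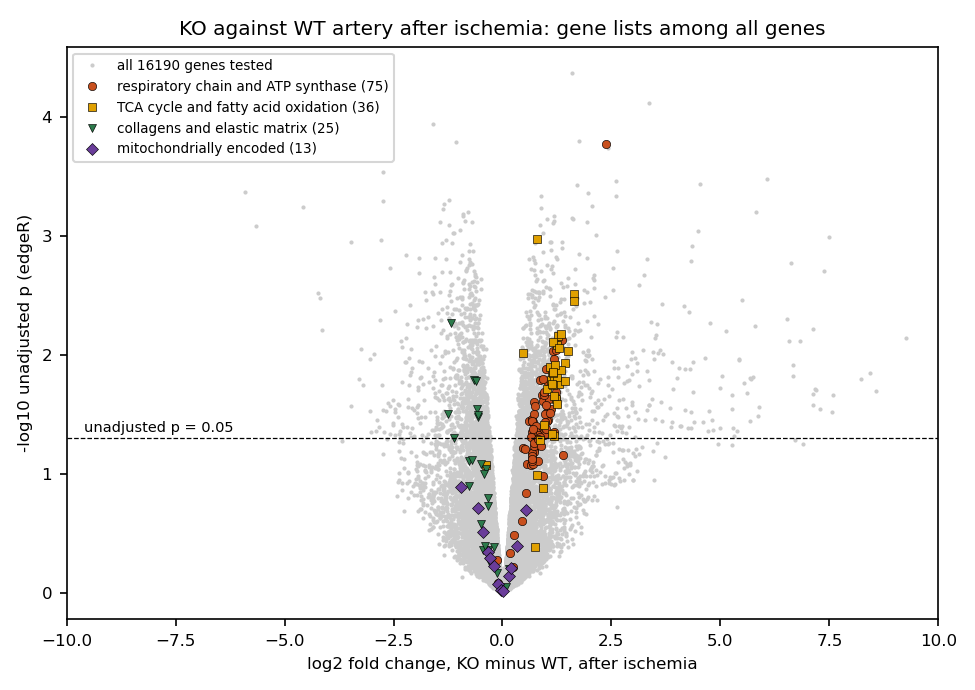
Log2 fold change (KO minus WT after ischemia) against −log10 of the unadjusted edgeR p for 16190 genes, with 4 gene groups coloured. Of the 75 respiratory chain and ATP synthase genes 73 lie to the right of 0, the 13 mitochondrially encoded genes straddle 0, and 23 of 25 collagen and elastic matrix genes lie to the left.

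Mitochondrially encoded subunits of the same complexes did not share this pattern. Of 13 genes tested, 5 were higher and 8 lower, 0 had an unadjusted p under 0.05, and the median was −0.09. COX1 was at 28143, 84473 and 39119 CPM in WT and 42910, 57259, 62609 and 61094 CPM in KO (0.15 ± 0.39). ND1 was at 7774, 35172 and 15067 CPM in WT and 15725 to 20586 CPM in KO (−0.09 ± 0.45). WT mouse 2 was the highest of all 7 mice in both genes and WT mouse 1 the lowest. Without WT mouse 2 the median of the group was 0.64. Some of these genes were listed far lower (ATP6 at 33.6 to 131 CPM). The treatment of reads shared between genes or with nuclear copies is not given in the sources used here, so levels were not compared between these genes.

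Isoforms of complex IV that are typical of heart, muscle and brown fat were less even. Cox7a1 (1.68 ± 0.75) and Cox8b (1.54 ± 0.69) were higher in KO mice 2, 3 and 4 than in any WT mouse, with KO mouse 1 inside the WT range. Cox6a2, the muscle form, was listed at 0 in 4 mice, at 1.01 CPM in WT mouse 1 and at 26.3 and 235 CPM in KO mice 3 and 4, so its difference came from those 2 mice.

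Genes for the ribosome inside mitochondria, which makes the mitochondrially encoded subunits, were higher more uniformly. Of 77 genes, 75 were higher in KO, with a median of 0.63, and 44 had an unadjusted p under 0.05. In 24 of the 77 every KO mouse was above every WT mouse, against 5.43% of all genes. Mrpl47 was at 5.49, 4.66 and 4.84 CPM in WT and at 10.1, 14.2, 8.94 and 11.3 CPM in KO (1.15 ± 0.23). Mrps27 was at 10.1, 9.08 and 12.3 CPM in WT and 16.3, 30.4, 18.7 and 26.7 CPM in KO (1.13 ± 0.25). KO mouse 1 was above all WT mice in both genes. Over the list it was slightly above them in mean log2 CPM (4.25 against at most 4.17). In summed CPM it lay inside the WT range (1797.5 against 1469 to 1897). The 84 genes of the cytosolic ribosome had a median of −0.05, with 1 higher and 2 lower at an unadjusted p under 0.05.

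The tricarboxylic acid cycle, which oxidises acetyl groups and feeds the respiratory chain, was higher in all 17 genes tested, 16 of them at an unadjusted p under 0.05, with a median of 1.18. Fh1 (fumarase) was at 53.0, 86.1 and 76.8 CPM in WT and at 74.7, 225, 204 and 224 CPM in KO (1.34 ± 0.38). Idh3a, the catalytic subunit of isocitrate dehydrogenase, had 101, 212 and 149 CPM in WT and 155, 609, 485 and 489 CPM in KO (1.5 ± 0.45). Again KO mouse 1 lay in the WT range, and the remaining KO mice lay above it. Without KO mouse 1, 10 of the 17 genes passed the limits on FDR and fold, and DESeq2 called 5 on the 7 mice.

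In fatty acid oxidation, 18 of 19 genes were higher and 15 had an unadjusted p under 0.05, with a median of 1.16. Eci2, an enoyl isomerase for unsaturated fatty acids, was at 46.8, 50.6 and 43.7 CPM in WT and 62.6, 90.6, 84.2 and 86.1 CPM in KO (0.78 ± 0.16), without overlap. Slc25a20, the carnitine carrier of the inner membrane, was at 49.0, 75.3 and 50.8 CPM in WT and at 69.6, 253, 200 and 210 CPM in KO (1.65 ± 0.41), and Etfdh, which hands the electrons of this pathway to ubiquinone, at 63.3 to 92.0 CPM against 86.8, 321, 299 and 273 CPM (1.64 ± 0.41). The exception in direction was Cpt1a, the liver form of the entry enzyme, at 178, 133 and 112 CPM in WT and 89.4 to 120 CPM in KO (−0.37 ± 0.19, p 0.084). Without KO mouse 1, 14 of 19 were past the limits.

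Transcription factors and coactivators that control mitochondrial genes were higher in 8 of 14 cases at an unadjusted p under 0.05, with 0 lower. Ppargc1a (PGC-1alpha), a coactivator induced by cold, fasting and exercise, was at 7.82, 89.4 and 4.28 CPM in WT and at 73.1, 215, 398 and 123 CPM in KO (2.58 ± 1.07). The groups overlapped, since KO mouse 1 lay below WT mouse 2. Esrra, the receptor through which PGC-1alpha acts on many mitochondrial promoters, was at 18, 22.3 and 23.0 CPM in WT and 23.4, 50.9, 52.4 and 74.4 CPM in KO (1.25 ± 0.34).

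Ppara, the receptor for fatty acids, was at 28.1, 23.4 and 14.8 CPM in WT and 27.8, 141, 110 and 58.1 CPM in KO (1.93 ± 0.52). Tfam, which packages and transcribes mitochondrial DNA, differed less, with 17.7 to 19.7 CPM in WT and 21.6 to 28.1 CPM in KO and no overlap (0.40 ± 0.15, p 0.0267). Nrf1 (−0.25 ± 0.19), Gabpa (0.19 ± 0.20) and Prdm16 (−0.14 ± 0.17) overlapped between the groups.

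Esrrb, the third receptor of the family, was at 0 to 0.149 CPM in WT and at 0.294 to 3.77 CPM in KO. Since all members of this family were higher in KO, the promoters of the energy genes were searched for the core letters of the binding site of the oestrogen-related receptors, AAGGTCA, on both strands of the 300 bases around each RefSeq start (250 before and 50 after, GRCm38.p6). The letters were present in 5.38% of 27025 promoters, in 4.21% of the 11322 tested genes with a promoter, in 60 of 1017 genes higher in KO at an unadjusted p under 0.05 (5.90%) and in 29 of 749 lower ones (3.87%). Among genes of the respiratory chain, the tricarboxylic acid cycle and fatty acid oxidation it was 11 of 94 (11.7%). By group it was 3 of 32 for complex I, 1 of 3 for complex II, 0 of 5 for complex III, 0 of 9 for complex IV, 5 of 14 for complex V, 1 of 15 for the tricarboxylic acid cycle and 1 of 16 for fatty acid oxidation. Of the 11 genes, 10 were higher in KO and 5 had an unadjusted p under 0.05. With or without the letters, 73 of 75 respiratory chain and ATP synthase genes were higher, 49 of them at that p. It was 17 of 17 and 16 for the tricarboxylic acid cycle, and 18 of 19 and 15 for fatty acid oxidation. Genes with the letters thus did not reach that p more often than these groups as a whole. A match of letters is not a bound site. Stretches before the start of 4 of these genes are printed along the gene's strand with the match in capitals, to set genes with and without a difference side by side.

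Acadm, chr3:153944864-153944893: gTGACCTTcgggctccggtgacactgggca
Ndufs5, chr4:123718386-123718436: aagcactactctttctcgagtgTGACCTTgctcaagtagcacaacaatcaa
Atp5g3, chr2:73911350-73911400: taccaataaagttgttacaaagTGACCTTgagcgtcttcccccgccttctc
Ndufb4, chr16:37654395-37654445: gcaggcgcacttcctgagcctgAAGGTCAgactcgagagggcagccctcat

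Acadm, the medium-chain acyl-CoA dehydrogenase, had a log2 fold change of 1.15 (p 0.0141) and the complex I gene Ndufs5 one of 0.95 (p 0.0218). For Atp5g3, a gene of the proton-carrying ring of complex V, it was 0.68 (p 0.0752), and for the complex I gene Ndufb4 it was 0.23 (p 0.61).

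Markers of brown fat varied with the nuclear genes of the respiratory chain, the tricarboxylic acid cycle and fatty acid oxidation. Mesenteric arteries carry perivascular fat, part of which can be thermogenic, and brown fat is very rich in mitochondria. Of 13 brown adipocyte markers tested, 12 were higher in KO and 9 had an unadjusted p under 0.05, with a median of 1.75. Summed over the list, WT mice ranged from 670 to 2604 CPM and KO mice from 1986 to 8305 CPM. As mean log2 CPM over the 13 markers, the WT mice stood at 4.29, 6.52 and 5.07 and the KO mice at 6.03, 7.89, 7.75 and 7.80. KO mouse 1 thus lay among the WT mice, as it did for the respiratory chain (5.89 for complex I, where the WT mice stood at 5.55, 6.26 and 6.08 and the other KO mice at 6.76 to 7.31). The defining marker Zic1 was listed at 0 in all 7 mice, while Ucp1 and Cidea (175 to 446 CPM in WT and 263 to 1101 CPM in KO) were far above the detection limit. Elovl3, a fatty acid elongase of brown fat, had the steepest value, from 0.687, 11.5 and 1.38 CPM to 14.9, 106, 83.4 and 147 CPM (4.29 ± 1.12).

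With the mean of these markers as a covariate in the fit, the medians of the energy groups were near 0 or below. They were −0.15 for complex I, −0.27 for complex III, −0.39 for complex IV, −0.10 for complex V, 0.06 for the mitochondrial ribosome, −0.15 for the tricarboxylic acid cycle and −0.16 for fatty acid oxidation. Of the 75 respiratory chain genes, 1 had an unadjusted p under 0.05 in that fit. The regulators had a median of 0.32, and Esrrg (2.33), Uqcrc1 (1.76) and Tnfrsf21 stayed higher. Because the markers and the genotype varied together across 7 mice, their shares in the difference cannot be told apart, and in bulk tissue more cells of a type and more RNA per cell cannot be told apart either. The list also holds genes that respond to PGC-1alpha or to fasting in other cells, such as Pdk4.

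**Figure D3:**
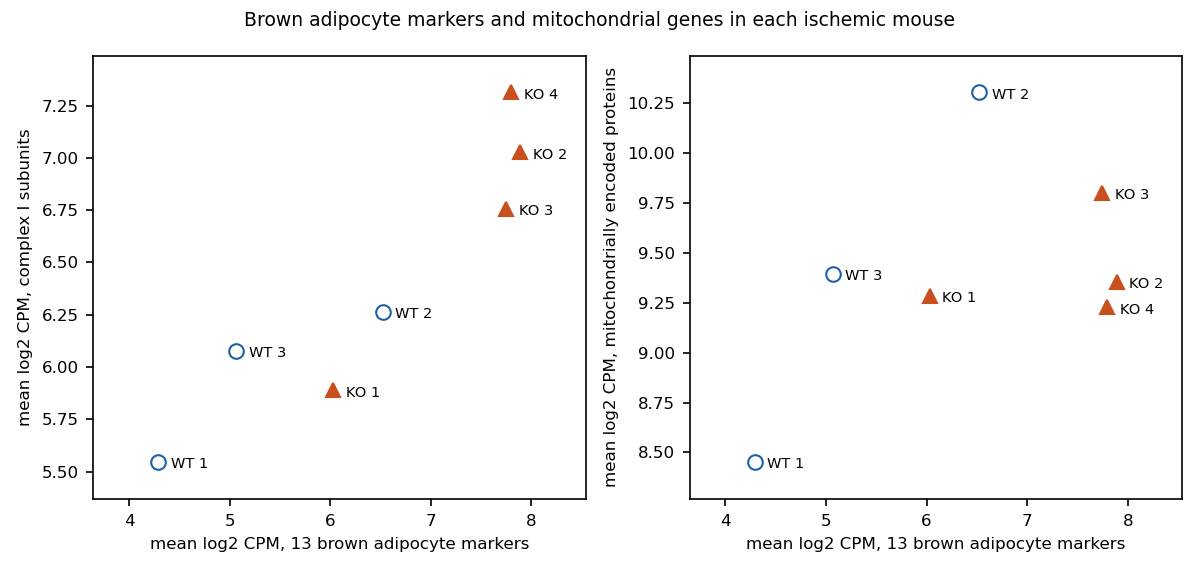
Mean log2 CPM of 13 brown adipocyte markers (x axis) against the mean log2 CPM of the complex I subunits (left) and of the mitochondrially encoded proteins (right), 1 labelled point per ischemic mouse. On the left KO mice 2, 3 and 4 form the upper right group and KO mouse 1 lies among the WT mice, while on the right the mice show no such order and WT mouse 2 is the highest.

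General adipocyte markers were also higher, 8 of 15 at an unadjusted p under 0.05 with a median of 0.93. Dgat2 and Lpl, which store and take up fat, had log2 fold changes of 1.52 ± 0.43 and 1.35 ± 0.45. Lep, the hormone of white fat, went the other way. It was at 13.4, 5.58 and 7.01 CPM in WT and at 1.94, 4.39, 1.22 and 0.587 CPM in KO (−2.09 ± 0.62), so the groups did not overlap.

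**Figure D4:**
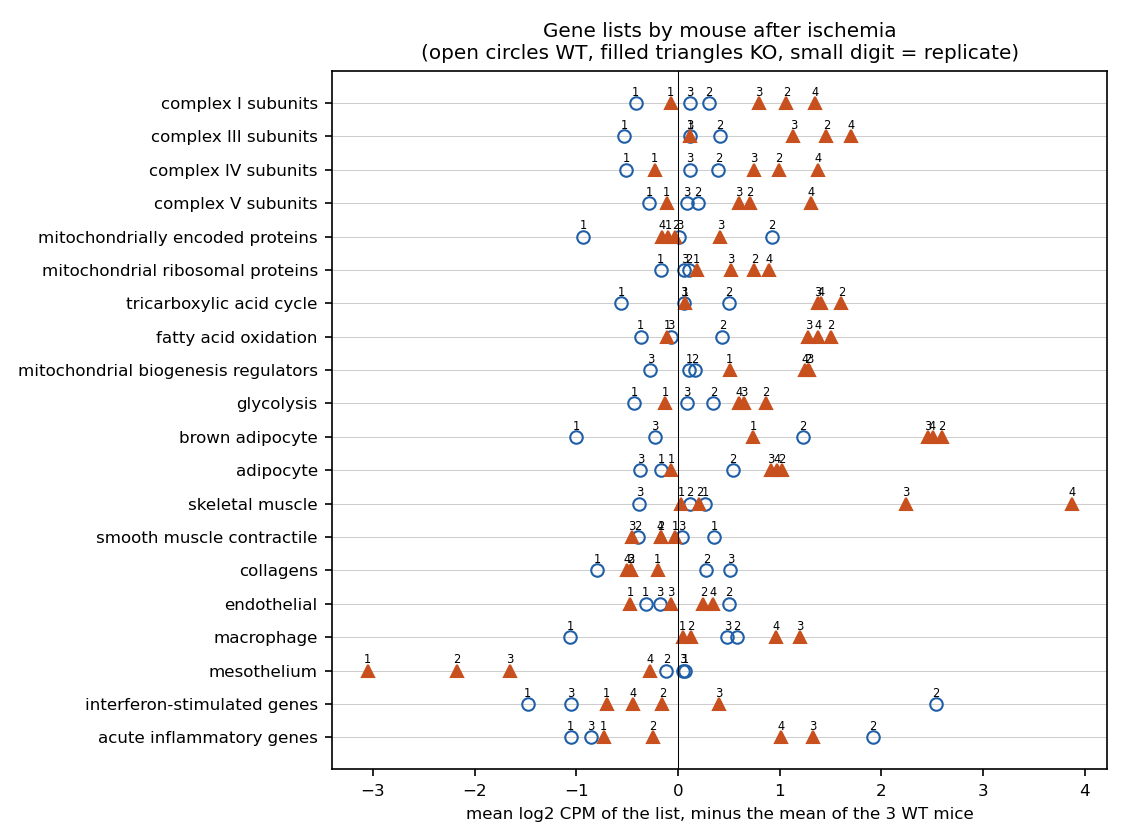
Mean log2 CPM of 20 gene lists in each ischemic mouse, set relative to the mean of the 3 WT mice (open circles WT, filled triangles KO, the small digit is the replicate). KO mice 2, 3 and 4 lie to the right of all WT mice for the nuclear energy lists, with KO mouse 1 among the WT mice except for the mitochondrial ribosome (4.25 against at most 4.17) and the regulators (4.02 against at most 3.68), and WT mouse 2 is far to the right for the interferon-stimulated and acute inflammatory genes.

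Glycolysis and the hypoxia response were higher in part. In glycolysis 9 of 19 genes were higher at an unadjusted p under 0.05 and 0 lower, with a median of 0.64. Hk2, the inducible hexokinase, was at 59.6, 152 and 100 CPM in WT and 147, 326, 373 and 269 CPM in KO (1.43 ± 0.39), whereas the glucose transporter gene Slc2a1 was at 49.2 to 64.1 CPM and 55.9 to 73.0 CPM (0.16 ± 0.15). Of 17 genes of the hypoxia response, 4 were higher, among them the oxygen sensor Egln1 (0.80 ± 0.26) and Higd1a (0.55 ± 0.17). Vegfa, the classic angiogenic target, overlapped between the groups (0.65 ± 0.38). With the brown adipocyte markers as a covariate the median was −0.23 for glycolysis and −0.30 for the hypoxia response, against 0.46 for the latter without it.

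Within the machinery of fission and fusion, of which Drp1 is a part, 4 of 19 genes were higher and 1 was lower at an unadjusted p under 0.05, with a median of 0.18. Both outer and inner membrane fusion genes were among the higher ones. Mfn2 was at 112, 87.2 and 94.8 CPM in WT and at 108, 167, 166 and 208 CPM in KO (0.73 ± 0.22), and Opa1 at 53.1, 61.4 and 53.9 CPM against 55.9, 128, 115 and 92.0 CPM (0.80 ± 0.26). Mtfp1, an inner membrane protein linked to fission, was at 2.54 to 5.03 CPM in WT and at 5.35, 16, 15 and 22.7 CPM in KO (1.87 ± 0.47).

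Inf2, the formin that assembles actin around sites of division, was lower, with 107, 85.7 and 69.3 CPM in WT and 67.2, 52.5, 60.2 and 49.9 CPM in KO (−0.60 ± 0.18). The receptors that recruit Drp1 to the membrane overlapped between groups. Mff had a log2 fold change of 0.24 ± 0.17, Fis1 of 0.18 ± 0.15 and Mief1 of 0.05 ± 0.17.

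Mitophagy and autophagy genes differed little, with 2 of 27 higher, 0 lower and a median of 0.17. Atg12, which is joined to Atg5 in the growing autophagosome, was at 25.6 to 34.0 CPM in WT and 39.5 to 47.6 CPM in KO (0.60 ± 0.16), and Mtor, the kinase that restrains autophagy, at 32.2 to 38.9 CPM and 41.7 to 81.8 CPM (0.71 ± 0.24). Clec16a, a regulator of mitophagy, was at 37.3, 36.0 and 36.1 CPM in WT and 35.7, 51.5, 57.2 and 44.1 CPM in KO (0.37 ± 0.18, p 0.0687). Park2, the gene of Parkin, was at 2.41 to 5.54 CPM over all 7 mice (0.14 ± 0.36), and Pink1 did not separate the groups (0.18 ± 0.25).

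Among 23 apoptosis regulators 1 was higher and 4 were lower at an unadjusted p under 0.05, against 8.28% and 6.49% of all genes. The higher one, Cycs, encodes cytochrome c, which is also an electron carrier, with 8.36, 16.9 and 16.6 CPM in WT and 13.5, 49.3, 40.4 and 51.0 CPM in KO (1.47 ± 0.46). The lower ones included promoters of cell death. Bmf was at 39.4 to 43.6 CPM in WT and 18.6 to 29.7 CPM in KO (−0.82 ± 0.19), and the death receptor Fas at 43.1 to 57.3 CPM and 31.7 to 38.0 CPM (−0.55 ± 0.15), both without overlap.

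Bcl2l11 (Bim) followed with −0.70 ± 0.28. Bax, whose protein opens the outer membrane, was at 33.3 to 34.1 CPM in WT and 25.5 to 34.5 CPM in KO (−0.14 ± 0.15). Casp9, an initiator caspase, overlapped between the groups (−0.41 ± 0.20, p 0.0769). Over the 15 genes of the proteins assayed in mice elsewhere in this work, 2 were higher, Cycs and Mtor, 0 were lower and the median was 0.16.

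Genes that make and reduce glutathione showed no clear difference in RNA, which does not show that they were equal. Gclc (0.13 ± 0.24), Gclm (−0.04 ± 0.20), Gss and Gsr had values that overlapped between the groups. In the wider antioxidant list, 7 of 34 genes were higher and 2 lower, with a median of 0.30. The higher ones were Sod2, Prdx3, Slc25a39, Gpx4, Cat, Prdx1 and Keap1. Sod2, the superoxide dismutase of the matrix, was at 76.3, 175 and 111 CPM in WT and 104, 341, 290 and 325 CPM in KO (1.14 ± 0.43), Prdx3 had 1.03 ± 0.33, and Slc25a39, the mitochondrial glutathione carrier, 0.87 ± 0.28. The cytosolic glutathione transferases Gstm1 (−0.49 ± 0.17) and Gstt1 (−0.55 ± 0.17) were the lower ones. With the brown adipocyte markers as a covariate the median of the list was −0.15.

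Mitochondrial chaperones and heat shock genes were higher in 8 of 20 cases, with 0 lower and a median of 0.41. Hspd1 (Hsp60), which folds imported proteins, was at 101 to 127 CPM in WT and 126, 274, 209 and 203 CPM in KO (0.81 ± 0.25). The integrated stress response had 1 higher and 1 lower gene of 17. Sesn2, a brake on mTORC1, was at 7.13, 15.0 and 5.98 CPM in WT and at 13, 33.1, 29.2 and 30.8 CPM in KO (1.5 ± 0.41), while Gdf15, the stress hormone, was at 2.64 to 6.66 CPM in WT and 0.705 to 2.35 CPM in KO (−1.63 ± 0.49).

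Immediate-early genes were split, with 1 of 24 higher and 3 lower, against 8.28% and 6.49% of all genes. Atf3 was at 40.3, 34.0 and 20.9 CPM in WT and 41.2, 113, 82.4 and 82.9 CPM in KO (1.33 ± 0.35), and Fosb (−1.26 ± 0.45), Ier2 (−0.47 ± 0.16) and Jund (−0.50 ± 0.19) were lower. Clock genes also pointed both ways. Dbp, an output gene of the clock, was at 9.15 to 18.1 CPM in WT and at 62.1, 30.6, 87.1 and 10.5 CPM in KO (1.96 ± 0.64), and Npas2, of the activating arm, at 42.7 to 48.4 CPM and 10.3 to 30.6 CPM (−1.05 ± 0.32). The hour of day of sampling is not given. Of 15 glucocorticoid-responsive genes, Pdk4 was higher (2.20 ± 0.60), and the median was −0.03.

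Inflammatory and interferon genes were set by 1 WT mouse. Of 20 interferon-stimulated genes, 19 were lower in KO, 3 of them at an unadjusted p under 0.05, with a median of −1.23. Ifit3 was at 2.87, 155 and 5.06 CPM in WT and at 4.29 to 9.95 CPM in KO, and Irf7 at 3.82, 134 and 5.17 CPM against 8.87 to 18.1 CPM. WT mouse 2 was far above all other mice, and without it the median was 1.17, with 13 genes higher and 0 lower at an unadjusted p under 0.05. For the 23 acute inflammatory genes the median was −0.20 with all 7 mice and 1.68 without WT mouse 2. In that fit 24 genes passed the filter on low counts, with a median of 1.80, and 11 were higher at an unadjusted p under 0.05. The direction of both groups therefore rested on that mouse.

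**Figure D5:**
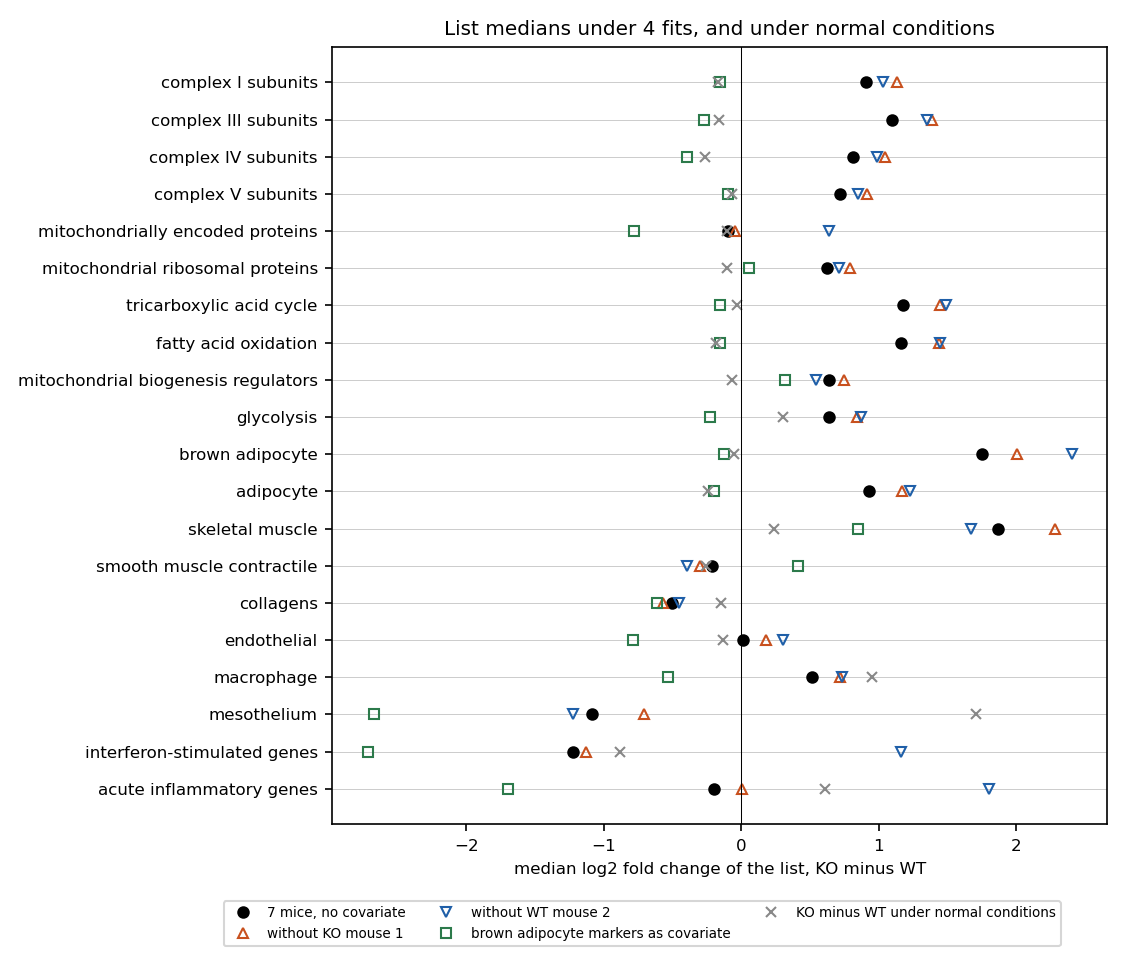
Median log2 fold change (KO minus WT) of 20 gene lists in the 7 ischemic mice, without KO mouse 1, without WT mouse 2, with the brown adipocyte markers as a covariate, and under normal conditions. The nuclear energy lists lie right of 0 in the first 3 and at or left of 0 with the covariate except the mitochondrial ribosome (0.06) and the regulators (0.32), and the interferon-stimulated genes cross from −1.23 to 1.17 without WT mouse 2.

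The contractile programme of smooth muscle was slightly lower, 16 of 18 genes, with a median of −0.21 and Myocd alone at an unadjusted p under 0.05. Synpo2 (−0.53 ± 0.27) and Cnn1 (−0.25 ± 0.24) overlapped between groups, and Acta2 differed by −0.05 ± 0.29. Des, the muscle intermediate filament gene, ran the other way (1.09 ± 0.52), with KO mouse 4 at 367 CPM and the other KO mice at 75.9 to 129 CPM. With the brown adipocyte covariate the median of the list was 0.41 and Myocd was at −0.61, and without WT mouse 1, which had the highest smooth muscle levels, the median was 0.01.

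Ion channels that set the tone of the vessel had 1 higher and 5 lower genes among 25, against 8.28% and 6.49% of all genes. Cacna1c, the pore of the L-type calcium channel, was at 168, 132 and 136 CPM in WT and 132, 72.4, 113 and 79.2 CPM in KO (−0.55 ± 0.23). Kcnma1, the large-conductance potassium channel, had −0.53 ± 0.22, and the cation channel Trpm4, which depolarises smooth muscle, was at 42.0 to 60.6 CPM in WT and 28.3 to 38.3 CPM in KO without overlap (−0.62 ± 0.18).

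Receptors for vasoconstrictors and vasodilators had 3 higher and 3 lower genes among 29, near the 8.28% and 6.49% of all genes, with a median of −0.004. Adra1a, which mediates constriction, was at 13.9, 24.6 and 13.9 CPM in WT and 15.9, 54.5, 66.2 and 37.5 CPM in KO (1.32 ± 0.45). KO mouse 1 lay inside the WT range. The other higher ones were Adrb1 (1.28 ± 0.38) and Adrb3, the thermogenic receptor of fat (1.23 ± 0.43). Gucy1b3, a subunit of the nitric oxide receptor, was lower (−0.54 ± 0.21).

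Motor and actin genes pointed both ways. Of 57 kinesin and dynein genes, 3 were higher and 6 lower, near the 8.28% and 6.49% of all genes. Klc1, among the lower ones, was at 166 to 218 CPM in WT and 119 to 145 CPM in KO (−0.56 ± 0.15). Of 34 actin regulators, 4 were higher and 6 lower, against the same shares of all genes, with a median of −0.05. Ssh1, the phosphatase that activates cofilin, was at 76.5 to 96.2 CPM in WT and 53.1 to 64.5 CPM in KO (−0.58 ± 0.14), and Mical1, which oxidises actin, at 133 to 175 CPM and 82.9 to 121 CPM (−0.68 ± 0.18). Msrb2, a mitochondrial methionine sulphoxide reductase, was on the higher side (1.22 ± 0.31).

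Collagens and elastic matrix genes were lower in 23 of 25 cases, 8 at an unadjusted p under 0.05 against 6.49% of all genes, with a median of −0.50. Lox, which cross-links collagen and elastin, was at 296, 460 and 728 CPM in WT and at 275, 253, 153 and 198 CPM in KO (−1.17 ± 0.32). Fn1 (fibronectin) was at 3037 to 3430 CPM in WT and 1636 to 2523 CPM in KO (−0.60 ± 0.20), and both genes had no overlap. The number of 8 was 18 without WT mouse 1 and 1 without WT mouse 3, 4 without WT mouse 2, and 3 or 4 without KO mouse 2, 3 or 4. Fibroblast markers had a median of −0.27, with 1 of 11 genes at an unadjusted p under 0.05. Their median was 0.05 without WT mouse 3 and −0.70 without WT mouse 1, so its sign rested on WT mouse 3, and the same list was higher in KO under normal conditions, with a median of 1.40.

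Other cell types differed between single mice. Skeletal muscle genes were high in KO mice 3 and 4: Mb (myoglobin) was at 0.0541 to 5.04 CPM in the other 5 mice and at 186 and 1237 CPM in these, and Ckm at 0.793 to 4.48 CPM against 25.2 and 164 CPM. Summed over the list, WT mice ranged from 13.7 to 21.1 CPM and KO mice from 13.6 to 1831 CPM. Tcap and Uqcrc1, which are also muscle-rich genes, were highest in KO mouse 4 (365 and 27.7 CPM). In KO mice 1 and 2 the muscle list was at the WT level (mean log2 CPM 0.11 and 0.29 against −0.30 to 0.35). Tcap was at 267 and 113 CPM in these mice, and Uqcrc1 at 10.4 and 16.1 CPM.

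Mesothelial markers were lower in all 9 genes (median −1.08). Muc16 was at 6.78, 4.11 and 4.49 CPM in WT and at 0.499, 0.216, 1.49 and 0.741 CPM in KO (−2.79 ± 0.58), but Msln and Upk3b in KO mouse 4 (8.80 and 16.1 CPM) were at the WT level. Under normal conditions this list was higher in KO, with a median of 1.71. Endothelial (median 0.01, 0 of 17 genes at an unadjusted p under 0.05) and macrophage markers (0.51, 0 of 13) overlapped between groups. The part that these other cell types had in the leading genes was not tested.

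KO and WT mice under normal conditions, none of them shared with the ischemic groups, gave other medians for the energy groups: −0.17 for complexes I and III, −0.26 for complex IV, −0.06 for complex V, −0.10 for the mitochondrial ribosome, −0.03 for the tricarboxylic acid cycle and −0.18 for fatty acid oxidation. WT normal mouse 3 was listed with lane 1 and all other libraries with lane 8. Before TMM scaling, Xist was at 226 and 426 CPM in WT normal mice 2 and 3 and at 478 and 321 CPM in KO normal mice 2 and 4. It was at most 4.33 CPM in the other normal mice. The part of lane or sex pattern in these medians was not tested. The difference between the conditions was tested in a fit of all 14 mice. Of 17693 genes, 0 passed an FDR of 0.05 in edgeR (percent of genes called 0, smallest FDR 0.946), and 765 had an unadjusted p under 0.05 (4.32%). DESeq2 on the 14 mice gave 13 genes, among them Lrp2, Ankrd61, Kif21b, Atf3, Il6 and Nr4a1.

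For Tnfrsf21 the interaction was 1.62 on the log2 scale with an unadjusted p of 0.00161, for Lrp2 it was −6.61 (p 0.000653) and for Ankrd61 −5.76 (p 0.000351). Among the energy groups, an unadjusted p under 0.05 for the difference between conditions was seen in 0 of 35 genes of complex I, 1 of 9 of complex III and 0 of the genes of complexes II, IV and V. It was seen in 6 of 77 genes of the mitochondrial ribosome, 0 of 17 of the tricarboxylic acid cycle, 1 of 19 of fatty acid oxidation and 2 of 14 regulators, against 4.32% of all genes. Of the 12 leading genes on the lower side, 9 were also lower in KO under normal conditions. They included Myocd (−1.08), Tmtc2 (−1.22), Mfap5 (−1.22) and Adam11 (−1.15). The adjusted p of these 4 there was 0.910 to 0.960 in edgeR's fit of all 14 mice. On the higher side 6 of 12 had the same direction, and Esrrg (−0.06), Shtn1 (−0.10) and Uqcrc1 (−0.22) were level or slightly lower there. The share of all genes with the same direction in both conditions was not counted, so these counts are not read as a result.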

How the data were processed

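RNA-seq read counts of the SMA were taken from the table deposited by the authors, which holds 1 whole-number count per gene symbol and mouse, without normalization or pooling. The submitters' processing notes name HISAT2 2.0.4 and mm10. The counting program, annotation and use of strand are not given in the sources used here, so overlapping, antisense and near-identical genes are uncertain. Columns were matched to mice by their names, and 0 columns were left unused. Of 46095 symbols, 25994 had a count in the 7 ischemic mice.

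The main test was made with edgeR 4.0.16 under R 4.3.3 (filterByExpr by group, TMM scaling, quasi-likelihood test of KO against WT in the 7 mice, Benjamini-Hochberg adjustment over 16190 genes). CPM values are TMM-scaled, and log2 CPM has a prior count of 2. At these depths the precision is set by the mice themselves (biological coefficient of variation 0.395). Each edgeR p-value weighs the KO-WT difference against the spread between these mice, which the fit moderates across genes. The difference between conditions was tested in a fit of all 14 mice. Alternatives were DESeq2 1.42.0, limma 3.58.1 (limma-trend), other scalings and filters, no mitochondrially encoded genes, all 14 mice, a block for the replicate number, the mean of 13 brown adipocyte markers as a covariate and leaving out each mouse. A covariate for the Xist and Y-linked pattern and DESeq2 on 14 mice were chosen after seeing the data. The scripts were tested on simulated counts.

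Named genes are Dnm1l, the 12 genes per direction with the smallest p whose groups do not overlap and whose mean is at least 1 CPM in a group, the 8 with the largest difference in CPM, and the 4 with the smallest p in each of 48 gene lists. Predicted symbols were skipped, and a few others are not reported here. Other list members were named for their role after their values were seen. The comparison and the lists were chosen with earlier results of these data known. Promoters are from RefSeq (GRCm38.p6) and exons from GENCODE.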

Additional observations from a re-analysis of the deposited data

Results flagged for a closer look

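Within the 4 KO mice, 25 named genes and 46 gene lists were searched for a mouse far from the others by Dixon's ratio of the nearest gap to the range, at its 95% critical value. Chance alone gives about 1 such group in 20. KO mouse 1 was the one set apart in most cases. Phospho1 was at 6.93 CPM in it, below the other KO mice. Its mean log2 CPM was also the lowest of the KO mice for the tricarboxylic acid cycle (7.55), fatty acid oxidation (6.08), the mitochondrial regulators (4.02), the brown adipocyte markers (6.03), the general adipocyte markers (6.93) and the gut markers (−2.27), and the highest for the collagens (8.70). KO mouse 2 stood above the others for mitochondrial chaperones and heat shock genes (7.09) and KO mouse 4 for lymphatic endothelial markers (3.71). KO mouse 3 stood below for the sex-linked genes (−1.36), a list that holds Xist and Y-linked genes. The cause of these differences between mice was not tested.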

How the results depend on the processing

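The number of genes past the limits was 0 in the edgeR fit, under both other scalings, both other filters, limma-trend, all 14 mice and each covariate. It was 430 with DESeq2, 32 with DESeq2 on all 14 mice (chosen after seeing the data) and 0 to 383 when each mouse was left out, where 383 came without KO mouse 1. Genes at an unadjusted p under 0.05 and higher in KO numbered 510 with all 14 mice in 1 fit, 395 with the brown adipocyte covariate, 801 with DESeq2 on all 14 mice and 797 (without KO mouse 2) to 1995 (without KO mouse 1) with a mouse left out. Those lower in KO numbered 636 with all 14 mice and 582 to 1482 with a mouse left out. With the covariate, 255 of its 1132 genes at an unadjusted p under 0.05 were also among the 2391 of the fit without it. Genes whose difference changed between conditions were 0 in each leave-out fit, from 0 to 0, and 13 with DESeq2 on all 14 mice. Dnm1l was on the other side of 0 with the brown adipocyte covariate (0.12). The causes of these shifts were not tested.

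With the replicate number as a block, 0 genes passed the limits (smallest FDR 0.153), 1040 were higher and 749 lower at an unadjusted p under 0.05, and 0 differed between conditions. The numbers do not pair the mice: same-numbered WT and KO mice correlated at 0.16, 0.03 and −0.15 in their deviations from the group means. Of single genes under an alternative, 421 values kept their direction and side of the threshold and 49 passed it newly. List medians stayed within the spread between mice in 803 cases and moved beyond it in 68.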

Other observations

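Symbols with counts in every mouse of a genotype and 0 in every mouse of the other were rare at this depth, with at least 3 counts asked of each mouse. There were 12 found in KO alone and 13 in WT alone, most of them predicted genes. Among the named ones, Ptprn2, a phosphatase-like protein of secretory vesicles, had 8, 39, 33 and 8 counts in the KO mice and 0 in the WT mice. Syt14, a synaptotagmin, had 8, 18, 11 and 5 counts in KO mice and 0 in WT mice. Eddm3b had 5, 18 and 4 counts in the WT mice and 0 in the KO mice. These symbols were picked for their pattern, and no test was made of them.

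Transcript length differed between the higher and lower genes. The median longest transcript was 2662 bases for genes higher in KO at an unadjusted p under 0.05, 4414 bases for lower ones and 3188 bases for all genes with a match (92.3% of those tested). The median log2 fold change was 0.11 in the shortest of 5 length classes (median 666 bases) and −0.25 in the longest (median 9649 bases). Across 14946 genes, which are not independent replicates, Spearman's rho of fold change with length was −0.21 and with GC content 0.00. Whether length had a part in the differences was not tested.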
